A study of Mus musculus with 6 samples.

Results

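Tuft cells of mouse small intestinal organoids are the subject here. In single-cell RNA-seq libraries they were chosen by the measured counts of 6 tuft genes, as cells with a transcript of at least 3, and 1133 of the 87954 cells kept over 6 libraries met this rule. A cell was kept when it had 1000 detected genes or more and fewer than 20% of its UMIs from mitochondrial genes. A UMI (unique molecular identifier) is the tag by which 1 captured transcript is counted once. The 6 genes of the rule are Dclk1, Trpm5, Avil, Alox5ap, Sh2d6 and Rgs13. Cells with 10 or more UMIs of Chga and Chgb per 10000 UMIs, which mark enteroendocrine cells, were left out. This limit removed 3 and 1 cells without EIPA, 11 and 3 with EIPA, and 0 from the CRISPR organoids. The 6 genes chose the cells, so their levels and every contrast of levels between tuft cells and the other cells are given as a description, with no test. Only the change with EIPA was compared between tuft cells and the other cells by a test, given below.

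Tuft cells are rare chemosensory cells of the gut lining. Their identity depends on the transcription factor Pou2f3. They sense luminal compounds through a taste-like cascade of G protein, phospholipase C, IP3 receptor and the cation channel Trpm5, and they signal by the cytokine Il25, by leukotrienes and prostaglandins, and by acetylcholine. In the intestine they are best known for starting the type 2 immune response to worms and protists. Work on sorted cells has divided them into tuft-1 cells, with neuron-like genes, and tuft-2 cells, with immune-like genes.

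All organoids were collected on day 3, from stocks first derived from 10-week-old mice. WT organoids received DMSO (-EIPA, 2 libraries) or EIPA, an amiloride analog that inhibits sodium-proton exchange (+EIPA, 2 libraries). The methods give 5 µM for EIPA and 2 µg/mL for doxycycline (Dox) in organoid cultures. CRISPR organoids were WT organoids infected with a lentivirus that carries a guide and a Dox-inducible Cas9 with GFP, selected with puromycin and grown as single clones. They gave 1 library without Dox (-Dox) and 1 with Dox (+Dox). Live cells were sorted for 5 libraries, and live GFP-positive cells for +Dox, so the sort differed between -Dox and +Dox. The methods state 2 separate preparations for the EIPA experiment and 1 for the CRISPR organoids. Nothing in the labels says whether the preparations came from separate mice, so p-values measure the spread between these libraries. The study asked of these libraries how the cell types of the intestinal epithelium change with each treatment.

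Of the libraries, the kept cells numbered from 12083 to 18211 and their median depth from 11477.5 to 17020 UMIs. Tuft cells were shallower than the other cells in each library. Their median depth was 5716 and 5951.5 UMIs in the -EIPA libraries, 6063 and 6109 in the +EIPA libraries and 5668 in -Dox, against 11507 to 14529.5 in the other cells of these 5. In +Dox the medians were 14407 and 17021.5 UMIs, so that its tuft cells were as deep as no other tuft cells. All 1133 tuft cells had different barcodes. Levels are given as counts per 1000000 UMIs (CPM).

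The genes of the rule lie on 6 chromosomes of the mouse build GRCm38, by the GENCODE annotation. Rgs13, a regulator of G protein signaling, is at chr1:144138654-144177372 and Dclk1, a microtubule-associated kinase, at chr3:55242364-55539068. Alox5ap, the activating protein of 5-lipoxygenase, is at chr5:149264767-149288153, and Sh2d6, an adaptor with an SH2 domain, at chr6:72513641-72521707. Trpm5, the taste transduction channel, is at chr7:143069153-143094642, and Avil, the actin-binding protein advillin, at chr10:127000709-127020994. Pou2f3 is at chr9:43123939-43210369.

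Pou2f3 belongs to the POU family, whose members bind the octamer ATGCAAAT, so the 250 bases before the annotated starts of tuft genes were read for these letters on both strands. The genes read were the 6 of the rule, the 20 genes of highest fold between tuft and other cells given below, and Gfi1b, Hmx2, Hmx3, Pou2f3, Spib and 1810046K07Rik. Of these 29 genes, 23 had an entry, with 30 start windows, in the RefSeq promoter table (GRCm38.p6). The octamer was in 2 of the 30 windows and in 1.60% of all 32851 windows of the table. Its first 7 letters, ATGCAAA, were in 5 of the 30 windows (Avil, Bcl2l14, Kctd12, Tuba1a and 1810046K07Rik) and in 4.12% of all windows. A match describes these letters and no binding. The 3 windows below show the letters in a gene of the rule, in the gene for a Pou2f3 coactivator and in a gene of high fold, each over the 250 bases before the start on the strand of the gene, with the octamer or its first 7 letters, on either strand, in capitals.
Avil, chr10:127000459-127000708, plus strand: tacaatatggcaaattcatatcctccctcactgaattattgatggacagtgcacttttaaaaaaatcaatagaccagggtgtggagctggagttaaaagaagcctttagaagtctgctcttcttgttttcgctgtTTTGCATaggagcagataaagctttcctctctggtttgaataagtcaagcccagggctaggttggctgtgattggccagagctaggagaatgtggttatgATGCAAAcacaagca
1810046K07Rik, chr9:51328919-51329168, minus strand: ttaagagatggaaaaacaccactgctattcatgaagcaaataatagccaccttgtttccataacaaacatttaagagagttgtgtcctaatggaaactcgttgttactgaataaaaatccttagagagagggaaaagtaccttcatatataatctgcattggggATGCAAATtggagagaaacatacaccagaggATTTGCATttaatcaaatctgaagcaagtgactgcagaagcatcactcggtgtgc
Kctd12, chr14:102982638-102982887, minus strand: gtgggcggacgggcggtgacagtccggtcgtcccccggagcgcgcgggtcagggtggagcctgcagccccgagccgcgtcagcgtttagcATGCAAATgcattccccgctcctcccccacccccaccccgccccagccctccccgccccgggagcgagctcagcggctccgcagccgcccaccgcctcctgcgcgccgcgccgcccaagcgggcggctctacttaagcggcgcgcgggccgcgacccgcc
In Avil the 7 letters begin 15 bases before the start on the strand of the gene and 115 bases before it on the other strand. In 1810046K07Rik the octamer begins 86 bases before the start and, on the other strand, 55 bases before it. In Kctd12 it begins 160 bases before the start.

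The label was set beside lists of tuft genes. Of the genes outside the rule, 12 of 16 transcription factors, 19 of 20 genes of phosphoinositide and kinase signaling, 10 of 12 tuft-1 genes and 15 of 18 tuft-2 genes were above the other cells in all 6 libraries, and 13 of 22 genes of taste and calcium signaling, 5 of 15 of eicosanoid synthesis and 4 of 12 cytokines and receptors were. So were 13 of 18 genes of the cytoskeleton, 15 of 20 other tuft markers and 1 of 5 cholinergic genes. Beside these, 3775 of 10255 genes tested with EIPA were above the other cells in all 4 WT libraries, which asks less than all 6. As counted, the eicosanoid, cytokine and cholinergic lists do not exceed that share, but the list counts include members that were not tested with EIPA. Of these 3 lists, 10 of 15, 7 of 12 and 1 of 5 genes were tested. The counts and the share thus have unlike bases, and no conclusion is drawn from setting them side by side. The genes of highest fold are named as a description, since ranking by fold selects them. Among genes outside the rule at 100 CPM or more in tuft cells of every library, Lrmp, which couples to IP3 receptors, and Gng13, the G protein gamma subunit of taste cells, stood highest over the other cells. Lrmp was at 534.9, 387 and 218.9, 273.2 CPM in the -EIPA and +EIPA libraries, 253.9 in -Dox and 172 in +Dox, and its fold over the other cells was at least 238 in each library. Gng13 was at 345.3, 302.7, 154, 309.4, 135 and 106 CPM in the same order, with a lowest fold of 174. Fyb, an adaptor of immune receptor signaling, and Kctd12 had lowest folds of 135 and 102. Among the 20 genes of highest fold were 3 of the rule (Avil, Rgs13 and Trpm5). The others included Lrmp, Gng13, Fyb, Kctd12, Itpr2, Ltc4s, Tuba1a, Il13ra1, Reep5, Hepacam2, Cd24a, Clmn, Bcl2l14, Bpgm, Zfhx3 and Msi2. Their lowest folds ran from 410.4 for Rgs13 to 3.28 for Msi2.

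**Figure D1:**
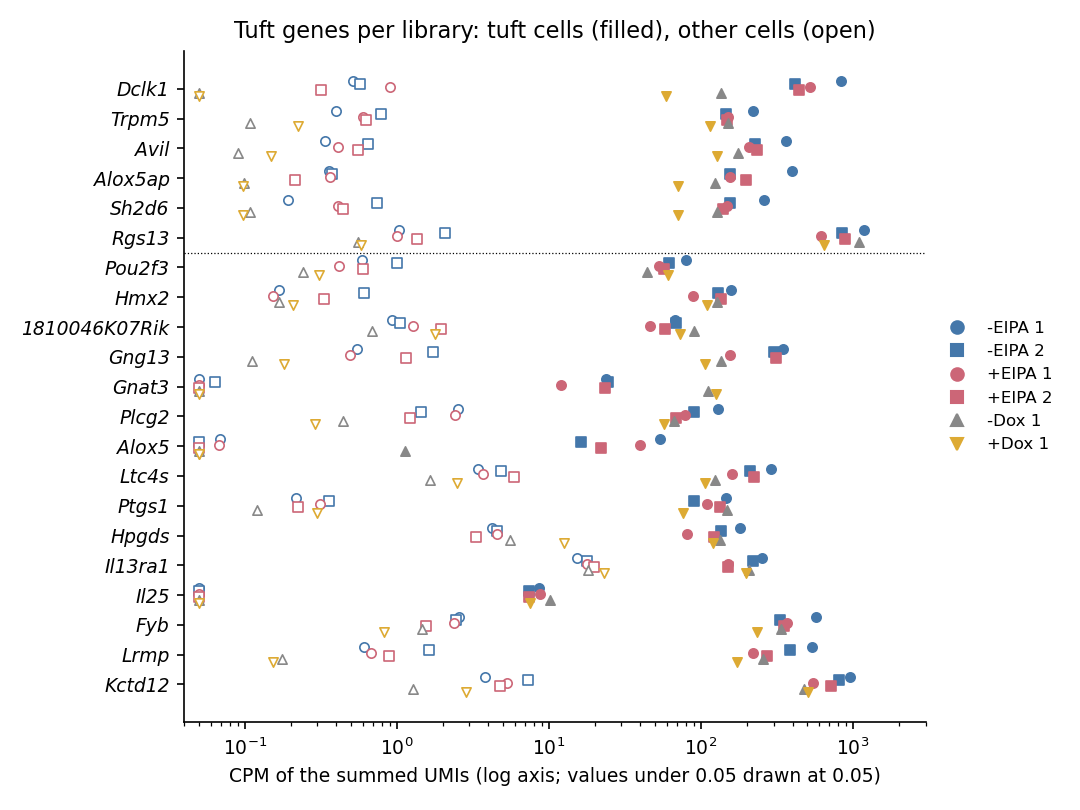
CPM of tuft genes (log axis) in tuft cells (filled) and in the other cells kept (open) of each of the 6 libraries, with the 6 genes of the rule above the dotted line and genes outside it below. Values under 0.05 CPM are drawn at 0.05. Filled points sit to the right of open points for each gene and library but Alox5 in +Dox, which is at 0 in both. In tuft cells, Gnat3, Alox5 and Dclk1 are the genes in which both CRISPR libraries are at least 2-fold from every WT library. By less than 2-fold from some WT library, both CRISPR libraries are also below all WT libraries for Avil, Alox5ap, Sh2d6, Gng13, Plcg2, Ltc4s and Kctd12. They are above them for 1810046K07Rik.

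Markers of cells from outside the epithelium were near 0 in tuft cells, and markers of other epithelial types were not. Leukocyte markers summed to 8.27 to 16.6 CPM per library over 14 genes, of which 9, among them Cd3e and Csf1r, were at 0 in tuft cells of all 6 libraries. Stromal markers summed to 0 to 2.29 CPM over 8 genes, with 4 at 0. Enterocyte markers summed to 3528 to 10597 CPM, goblet markers to 1381 to 9231 CPM and Paneth markers to 2923 to 19742 CPM. Stem cell markers summed to 1044 to 3001 CPM, proliferation markers to 522 to 822 CPM and enteroendocrine markers to 4.53 to 959.7 CPM. Most tuft cells held a few UMIs of the enterocyte, goblet and Paneth lists, with medians of 10.9, 10.2 and 21.7 per 10000 UMIs over all tuft cells, and the large amounts were in few cells. The 10% of tuft cells richest in each list held 72.4% to 89.9% of its enterocyte UMIs, 69.2% to 86.6% of its goblet UMIs and 74.6% to 88.1% of its Paneth UMIs, by library. For the tuft-1 and tuft-2 genes, the corresponding 10% held 19.4% to 25.9% and 21.6% to 25%. No doublet was removed in the values reported. Of the tuft cells, 23.2% to 27.3% in the WT libraries, 20.3% in -Dox and 8.51% in +Dox were among the 10% of all cells with the highest doublet scores of their library.

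The cells varied in how many of the 6 genes they showed. Of the 1133 cells, 350 had all 6, 346 had 5, 241 had 4 and 196 had 3, and 227 cells with 2 lay just outside the rule. The share with all 6 was 45.6% and 22.7% in the -EIPA libraries, 29.4% and 39.2% in the +EIPA libraries, 20.3% in -Dox and 17.0% in +Dox. Rgs13 was seen in 94.6% of tuft cells, Avil in 86.5%, Dclk1 in 83.1%, Trpm5 in 76.6%, Sh2d6 in 72.4% and Alox5ap in 61.9%. Dclk1 was the gene of the rule whose detection differed most among libraries, from 36.2% in +Dox and 54.1% in -Dox to between 84.5% and 91.2% in the WT libraries.

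Several genes that took no part in the rule were higher in cells with more of the 6. Fyb was at 50.4 CPM over the 227 cells with 2 genes, at 125 CPM with 3, 286 with 4, 413 with 5 and 559 with all 6. Ltc4s, leukotriene C4 synthase, went from 105 to 108, 140, 202 and 314 CPM. Pou2f3 went from 29.7 to 37.9, 51.0, 66.7 and 75.6 CPM over all libraries, but from 59.0 with 3 genes to 54.0 with 6 in +EIPA replicate 2, and from 70.7 with 5 to 51.8 with 6 in +EIPA replicate 1. Not every tuft gene rose from 3 to 6 genes. Over all libraries, 1810046K07Rik was at 66.5, 53.2, 66.5 and 66.5 CPM and Nrep at 179, 195, 220 and 187. With 6 genes 1810046K07Rik was lower than with 3 in both +EIPA libraries and higher in the rest. Apoa1, an enterocyte gene, was at 557, 552, 777, 673 and 505 CPM over all libraries, which differ in its level. From 3 to 6 genes it went from 558 to 859, 1083 and 1079 CPM in +EIPA replicate 2, and in the other 3 WT libraries it was lower with 6 genes than with 3. Depth did not rise along the series: median UMIs were 9932, 7396.5, 6400, 5864.5 and 5828. In +Dox, the 14 tuft cells with 3 genes and the 12 with 4 had median depths of 18919 and 19405.5 UMIs and 114 and 103 CPM of Fyb, whereas cells with 5 and 6 had 534 and 625 CPM of it. These steps are a description over cells of 6 libraries, and more of the 6 genes are detected where tuft genes as a whole are higher.

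**Figure D2:**
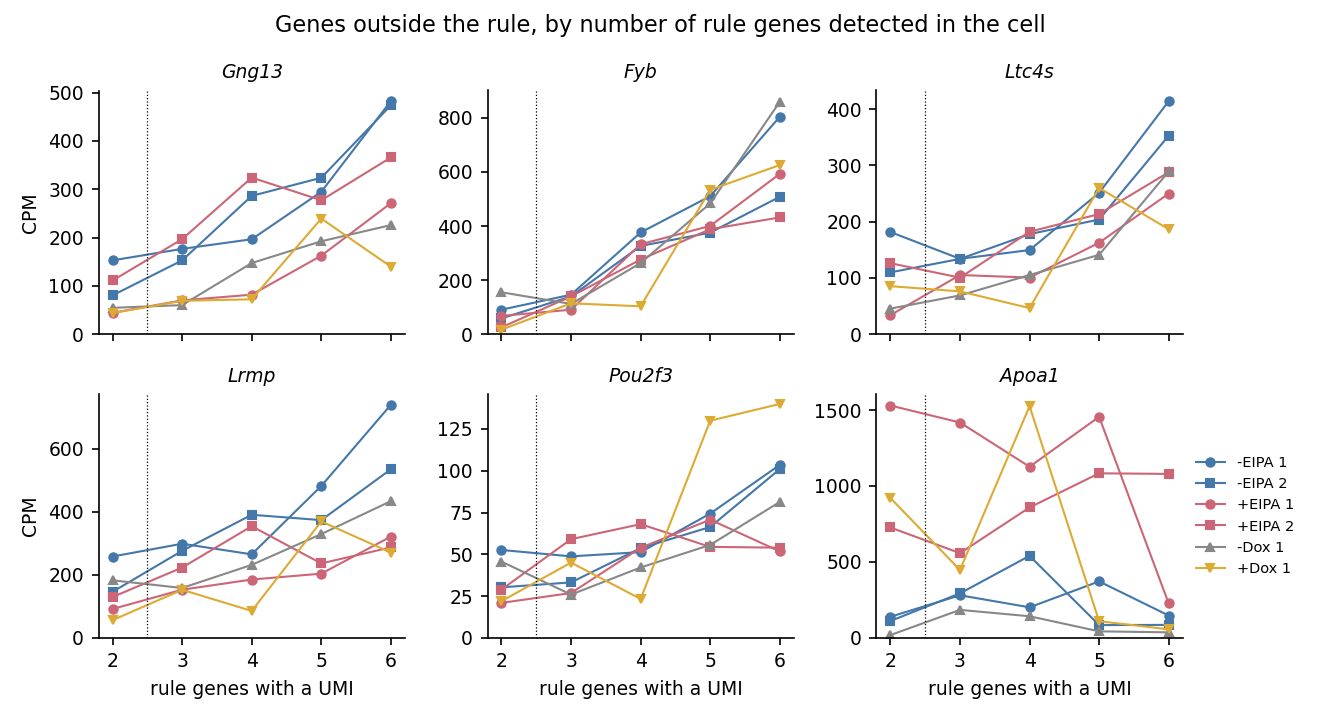
CPM of 6 genes outside the rule against the number of rule genes with a UMI in the cell, 1 line per library; cells with 2 (left of the dotted line) are outside the rule. From 3 to 6 genes, Fyb climbs in each WT library, while Apoa1 is higher with 6 genes than with 3 in +EIPA replicate 2 and lower in the other 3.

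Transcription factors of the lineage were measured at low counts. Pou2f3 was at 80.0 and 61.9 CPM in the -EIPA libraries, 52.8 and 57.0 in the +EIPA libraries, 44.2 in -Dox and 60.3 in +Dox, against at most 0.996 CPM in the other cells of any library. 1810046K07Rik, the gene for the Pou2f3 coactivator OCA-T1, was at 67.8, 68.7, 45.9, 58.2, 89.6 and 73.2 CPM in the same order. Gfi1b, a zinc finger repressor, was at 10.8, 10.8, 6.88, 13.5, 17.0 and 7.54 CPM.

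Il25, the cytokine that tuft cells send to innate lymphoid cells, was at 8.65, 7.38, 8.72, 7.35, 10.2 and 7.54 CPM. It had a UMI in 6.43% to 12.8% of tuft cells by library. After each cell was thinned to 2000 UMIs, Il25 was in 1.39% to 4.26% of tuft cells. It was in 0 of 400 enterocyte cells thinned in the same way in each library, which allows a share of cells with a UMI of up to 0.75%; these cells had UMIs of 3 or more of Alpi, Fabp2, Anpep, Mttp, Sis and Apob. Chat, which makes acetylcholine, was at 28.1, 12.5, 13.8 and 13.8 CPM in the WT libraries. Ptgs1, the cyclooxygenase of prostaglandin synthesis, was at 146, 90.6, 110, 133, 149 and 76.5 CPM, and Hpgds, prostaglandin D2 synthase, at 179.5, 136, 81.2, 122, 133 and 121 CPM. Among the receptors, Il13ra1 was at 252.3, 219, 151, 150.4, 206 and 197 CPM, whereas 8 of the 22 genes of taste and calcium signaling, most of them taste receptors, were at 0 in tuft cells of all 6 libraries.

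The WT and CRISPR organoids differed in several genes of the tuft program. These values compare libraries of different organoid lines at the same day, and line, clone and culture cannot be told apart, so no test was made. Among 5677 genes with a mean of 20 CPM or more in tuft cells, 23 (0.405%) were at least 2-fold higher in every WT library than in either CRISPR library and 14 (0.247%) were at least 2-fold higher in both CRISPR libraries. Of 92 genes in the tuft lists that passed this mean, 4 and 1 did so, and these 5 were chosen after their values were seen. Gnat3, gustducin, the G protein alpha subunit of taste cells, was the one higher in CRISPR organoids, at 111 CPM in -Dox and 125 in +Dox against 23.8, 24.4, 11.9 and 23.3 in the WT libraries. It had a UMI in 51.4% and 51.1% of the CRISPR tuft cells and in 7.58% to 13.4% of the WT tuft cells.

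Alox5, the 5-lipoxygenase that makes leukotriene precursors, went the other way. It was at 54.1, 16.2, 39.5 and 22.1 CPM in the WT libraries, at 1.13 CPM in -Dox and at 0 in +Dox. It had a UMI in 12.4% to 29.8% of WT tuft cells, in 1 of 74 -Dox cells and in 0 of 47 +Dox cells, which allows a share of cells with a UMI of up to 6.38% and sets no limit on cells that express the gene. Hmx3, a homeobox factor, was at 77.1, 39.8, 49.1 and 42.0 CPM in the WT libraries and at 0 in both CRISPR libraries, where 0 of 74 and 0 of 47 cells had a UMI. Dclk1 was at 833.4, 412.9, 524.2 and 438.9 CPM in the WT libraries, 135 in -Dox and 59.2 in +Dox. Atp2a3, a calcium pump of the endoplasmic reticulum, was at 286.9, 224, 190.5 and 204 CPM against 56.7 and 40.9, and the other cells of the CRISPR libraries were lower too, at 1.69 and 2.29 CPM against 6.64 to 12.5. Dclk1 is a gene of the rule, and cells with few Dclk1 UMIs enter it less often.

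The share of tuft cells in the WT organoids did not move one way with EIPA. The share was 1.36% (171 of 12606 cells, 95% exact binomial interval 1.16% to 1.57%) and 1.99% (362 of 18211, 1.79% to 2.20%) in the -EIPA libraries. It was 1.60% (211 of 13194, 1.39% to 1.83%) and 1.88% (268 of 14262, 1.66% to 2.12%) in the +EIPA libraries, between both -EIPA values. Divided by the -EIPA share of the same experiment, the +EIPA share gave 1.18 and 0.945, with a mean of 1.06 ± 0.165 (SD, n = 2), so the direction differed between the experiments. With 4 or more of the 6 genes asked of a cell, both were above 1, at 1.07 and 1.05. No test was made, since an exact two-sided permutation test of 2 against 2 libraries cannot give a p under 0.333. Intervals cover counting error only.

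The share was 0.421% (74 of 17598, 0.330% to 0.528%) in -Dox and 0.389% (47 of 12083, 0.286% to 0.517%) in +Dox, whose intervals overlap. Both were below every WT library, in a comparison of lines that no replicate checks. Depth differed between libraries and cells, so the shares were also taken after thinning each cell to 2000 UMIs, which left out 18 to 99 shallower cells per library. They were then 0.971%, 1.07%, 0.812% and 1.04% in the WT libraries in the order above, 0.189% in -Dox and 0.141% in +Dox. The ratios of +EIPA to -EIPA became 0.837 and 0.967, both below 1, with a mean of 0.902. The ratio of experiment 1 was thus above 1 with all UMIs and below 1 after thinning.

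**Figure D3:**
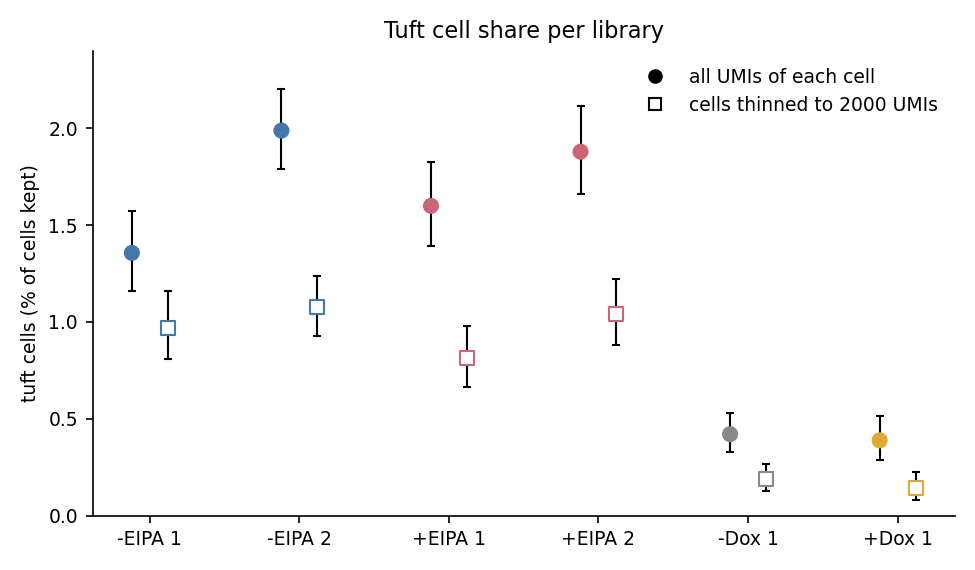
Tuft cells as a percentage of the cells kept in each library, from all UMIs (circles) and after thinning to 2000 UMIs (squares), with 95% exact binomial intervals. The 4 WT libraries lie between 1.36% and 1.99% with all UMIs, and -Dox and +Dox at 0.421% and 0.389%.

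Among the genes called between -EIPA and +EIPA tuft cells were 9 of 13 enterocyte and 4 of 8 Paneth markers tested, 0 of 8 goblet and 0 of 9 enteroendocrine markers, and the immediate early genes Fos and Fosb. UMIs were summed over the tuft cells of each library and the 2 +EIPA sums were compared with the 2 -EIPA sums by edgeR's quasi-likelihood test. Of 10255 genes tested, 67 (0.653%) were called higher and 2 (0.0195%) lower at a Benjamini-Hochberg adjusted p under 0.05, which is 0.673% in all. At an unadjusted p under 0.05 there were 558, of which 375 were higher and 183 lower. The fit with the experiment as a block called 193 genes, 176 higher and 17 lower, and included all 69. By list it called 13 enterocyte and 8 Paneth markers higher, 3 goblet markers higher and 1 lower, and 2 enteroendocrine markers lower. Of the 67 genes called higher, 50 were below the other cells in all 4 WT libraries and 2 (Tm4sf4 and Defa28) were above them. Of the 10255 genes, 2137 were below and 3775 above in the same sense.

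Among 194 genes outside the rule at least 5-fold above the other cells in every WT library, edgeR called 0, with 11 lower and 3 higher at an unadjusted p under 0.05, and DESeq2 called 0 of them. At that p, 183 of all 10255 genes were lower and 375 higher. The median log2 fold change of the 194 was -0.11, with 118 below 0 and 76 above, beside a median of 0.00 over all genes tested. The 194 were chosen by levels in the same sums that were tested, with and without EIPA. A gene that EIPA strongly lowers in tuft cells or raises in the other cells may have missed the 5-fold limit. With the experiment as a block, 3 of the 194 were called: Lrmp and Nrep, a neuronal regeneration protein of tuft-1 cells, were lower and Nrgn was higher. For the 6 genes of the rule, which admitted the cells, the log2 fold changes are a description with no test, and their median was -0.32.

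Lrmp had the lowest p of these 194 genes. It was at 534.9 and 387 CPM without EIPA and at 218.9 and 273.2 with it, so the groups did not overlap. Its log2 fold change was -0.80 ± 0.19 (SE), with an adjusted p of 0.152 by edgeR and 4.53e-04 with the experiment as a block, which leaves 1 residual degree of freedom. Nrep, at 187 and 212 CPM against 96.4 and 134, had a log2 fold change of -0.70 ± 0.18 and adjusted p values by edgeR of 0.233 without and 0.00333 with the block. Il13ra1, the receptor subunit through which IL-13 acts, was at 252.3 and 219 CPM against 151 and 150.4, with a log2 fold change of -0.54 ± 0.15 and an adjusted p of 0.322 by edgeR. The 3 genes were lower in both +EIPA libraries and were not called without the block, whereas the fit with the block called Lrmp and Nrep.

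Of the functional lists of tuft cells, none of those below had a gene called without the block, and their medians ran from -0.32 to 0.12 beside 0.00 over all genes. In taste and calcium signaling, 0 of 12 genes tested were called and the median was -0.31. In transcription factors the count was 0 of 14 with a median of -0.22, and in phosphoinositide and kinase signaling 0 of 20 with -0.18. Eicosanoid synthesis gave 0 of 10 with 0.02, and cytokines and their receptors 0 of 7 with 0.12. The cytoskeleton and apical bundle gave 0 of 17 with -0.12. With the block, 1 gene of the tuft-1 list was called, as lower. Without it the tuft-1 list gave 0 of 11 with -0.32 and the tuft-2 list 0 of 17 with 0.11. Whether the tuft-1 and tuft-2 medians differ was not tested. Chat, the 1 cholinergic gene tested, was at 28.1 and 12.5 CPM against 13.8 and 13.8, with a log2 fold change of -0.31 ± 0.36.

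Tm4sf4, a tetraspanin-like membrane protein among the other tuft markers, was the 1 gene of a tuft list that was called in the fit without the block. It was at 79.3 and 67.0 CPM in the -EIPA libraries and at 180.8 and 249 in the +EIPA libraries, with a log2 fold change of 1.67 ± 0.19 and an adjusted p of 0.00356 by edgeR. It was above the other cells in every library, but these cells had more of it with EIPA too, at 93.4 and 139 CPM against 23.9 and 27.4. In -Dox and +Dox, tuft cells were at 229 and 241.2 CPM. Of the 17 genes tested in that list, the median was -0.18.

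Enterocyte genes were the list with the most members called. All 13 enterocyte markers tested were higher, 9 were called, and the median log2 fold change was 1.19. Apoa1, the main protein of HDL, was at 235 and 257.3 CPM without EIPA and at 1067 and 973.7 with it, with a log2 fold change of 2.15 ± 0.16 and an adjusted p of 1.79e-04 by edgeR. Apoc2, the cofactor of lipoprotein lipase and like Guca2b not in that list, was at 13.7 and 15.0 against 161 and 178 CPM, with 3.63 ± 0.19 and 1.88e-05. Apoc3, at 20.2 and 23.6 against 147 and 179 CPM, changed by 2.97 ± 0.19. Guca2b, uroguanylin, was at 75.7 and 59.3 against 361.7 and 353.5 CPM, and changed by 2.52 ± 0.17. Further genes called higher were Cyp3a11, which handles foreign compounds, the antimicrobial Leap2 and Reg3a, and the sucrase-isomaltase gene Sis.

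The same enterocyte genes were higher with EIPA in the other cells, which are 1 sum over cell types whose mix was not held equal. Apoa1 was 2.67-fold and 5.87-fold higher in the other cells of experiments 1 and 2, and 4.54-fold and 3.79-fold in tuft cells. For Apoc2 the folds were 3.04 and 8.31 in the other cells and 11.7 and 11.8 in tuft cells, and for Guca2b 2.85 and 5.03 against 4.78 and 5.96. Enterocyte markers summed to 3952 and 3528 CPM in -EIPA tuft cells and to 8250 and 8060 in +EIPA tuft cells, beside 8392, 4670, 14861 and 13080 CPM in the other cells. In single tuft cells the median was 9.49 and 9.09 enterocyte UMIs per 10000 without EIPA and 13.9 and 11.4 with it. Without the 10% of tuft cells richest in enterocyte, goblet, Paneth and enteroendocrine markers, 50 genes were called, 43 of them among the 69. Apoa1 then had a log2 fold change of 2.53. The lowest level among the cells left out was 137 and 213 of these UMIs per 10000 without EIPA and 826 and 522 with it. Richer cells thus stayed in the +EIPA sums, and this setting does not hold mixed cells equal between the groups. Without cells of high doublet score 52 genes were called, 37 of them shared, and the Apoa1 change was 2.18. Of the enterocyte list, 7 were called in each of these 2 settings, against 9 with all tuft cells. The part of free RNA and of mixed droplets in these levels was not tested beyond these values.

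Paneth genes were the next. Their 8 tested markers all had values above 0, the median was 1.72 (log2), and 4 were called. In the other cells Paneth markers summed to 7055 and 12121 CPM without EIPA and to 9694 and 24360 with it. In the test of the difference given below, edgeR called 7 of the 8 with a higher change in tuft cells, and DESeq2 called 0. Defa24, an alpha-defensin, was at 2855 and 4094 CPM in the -EIPA libraries and at 11402 and 11073 in the +EIPA libraries, with 1.79 ± 0.19 and an adjusted p of 0.00166 by edgeR. Of 13 defensin genes tested, 10 were called higher. Defensin genes are near-identical copies whose reads can be split between them, so the count over single genes is uncertain. Defa30 was at 115 and 309.8 against 1760 and 1414 CPM, and 1 cell held 47.2% and 23.6% of its UMIs without EIPA and 14.2% and 27.1% with it. In single tuft cells the median Paneth count per 10000 UMIs was 9.18 and 26.9 without EIPA and 12.8 and 37.3 with it, so it differed more between experiments than with EIPA. Without the richest 10%, 2 Paneth genes were called and the adjusted p of Defa30 was 0.131.

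Immediate early genes held both genes called lower. Fos, a subunit of the AP-1 transcription factor, was at 177 and 279 CPM in the -EIPA libraries and at 78.0 and 85.2 in the +EIPA libraries, with a log2 fold change of -1.40 ± 0.21 and an adjusted p of 0.0153 by edgeR. Fosb was at 28.1 and 20.2 against 4.59 and 3.98 CPM, with -2.34 ± 0.32 and 0.00955. All 14 genes of the list were lower, 9 at an unadjusted p under 0.05 (183 of all 10255 genes), and the median was -0.73. With the block 5 were called lower. In the other cells Fos was at 315 and 392 against 122.5 and 140.2 CPM. Without cells of high doublet score neither gene was called, with log2 fold changes of -0.95 and -2.0 and adjusted p values by edgeR of 0.0686 for Fos and 0.131 for Fosb. Fos was also not called without +EIPA replicate 2 (adjusted p 0.0574 by edgeR), nor Fosb without the richest 10% (0.0562). Immediate early genes also respond to the dissociation of tissue into single cells.

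Of 14 ATF4 targets tested, 13 had log2 fold changes above 0, with a median of 0.79. At an unadjusted p under 0.05, 9 were higher, beside 375 of all 10255 genes. Cth, which makes cysteine, was called, at 48.3 and 45.4 against 93.6 and 83.3 CPM. The block fit called 6 ATF4 targets. In the other cells the listed ATF4 targets summed to 774 and 632 CPM without EIPA and to 990 and 804 with it. Cth was not called without either +EIPA library, with 2 or more rule genes, or without cells of high doublet score, where its adjusted p by edgeR was 0.123. Of 9 regenerative genes tested, all were higher, with a median of 1.06, and Ly6a, Ly6d and Areg were called, and 7 with the block. Without cells of high doublet score the median was 0.50 and 1 was called, and over 13 settings it was lowest, 0.10, when +EIPA replicate 2 was left out and highest, 2.49, when -EIPA replicate 2 was. Neither Ly6a nor Ly6d was called with 2 or more rule genes. Ly6a, the stem cell antigen Sca-1, was at 3.60 and 3.12 against 17.4 and 24.5 CPM, with 73.7% and 31.2% of the +EIPA UMIs in 1 cell. Ly6d had 0 UMIs in both -EIPA libraries and 4.59 and 7.04 CPM with EIPA, at least 9.92-fold higher against a floor of 3 counts over both -EIPA libraries. With Ly6d at that bound the median of the list was 1.06 too, and 1 cell held 90% and 82.6% of its UMIs in the +EIPA libraries. Areg, a ligand of the EGF receptor, was at 33.2 and 22.1 against 68.4 and 78.7 CPM. The listed regenerative genes summed in the other cells to 783 and 1494 CPM without EIPA and to 1388 and 3090 with it. Of 23 pH regulators tested, Slc26a6, an anion exchanger, was called, at 10.8 and 7.95 against 22.5 and 22.4 CPM. It was not called by DESeq2, with library size scaling, with 4 or more rule genes, without the richest 10%, without cells of high doublet score (adjusted p 0.471 by edgeR), or without +EIPA replicate 1, +EIPA replicate 2 or -EIPA replicate 2. Stem cell and proliferation markers gave 0 of 9 and 0 of 8, with medians of 0.13 and 0.14, and of 0.53 and 0.52 without cells of high doublet score. Goblet and enteroendocrine markers gave 0 of 8 and 0 of 9 without the block, with medians of 0.42 and 0.14, the latter from -0.63 to 1.09 over 13 settings. The goblet median was 1.15 without the richest 10%, whose limit was higher with EIPA. It was 0.84 without cells of high doublet score, with 2 genes called in each of these 2 settings, and -0.09 without +EIPA replicate 2.

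**Figure D4:**
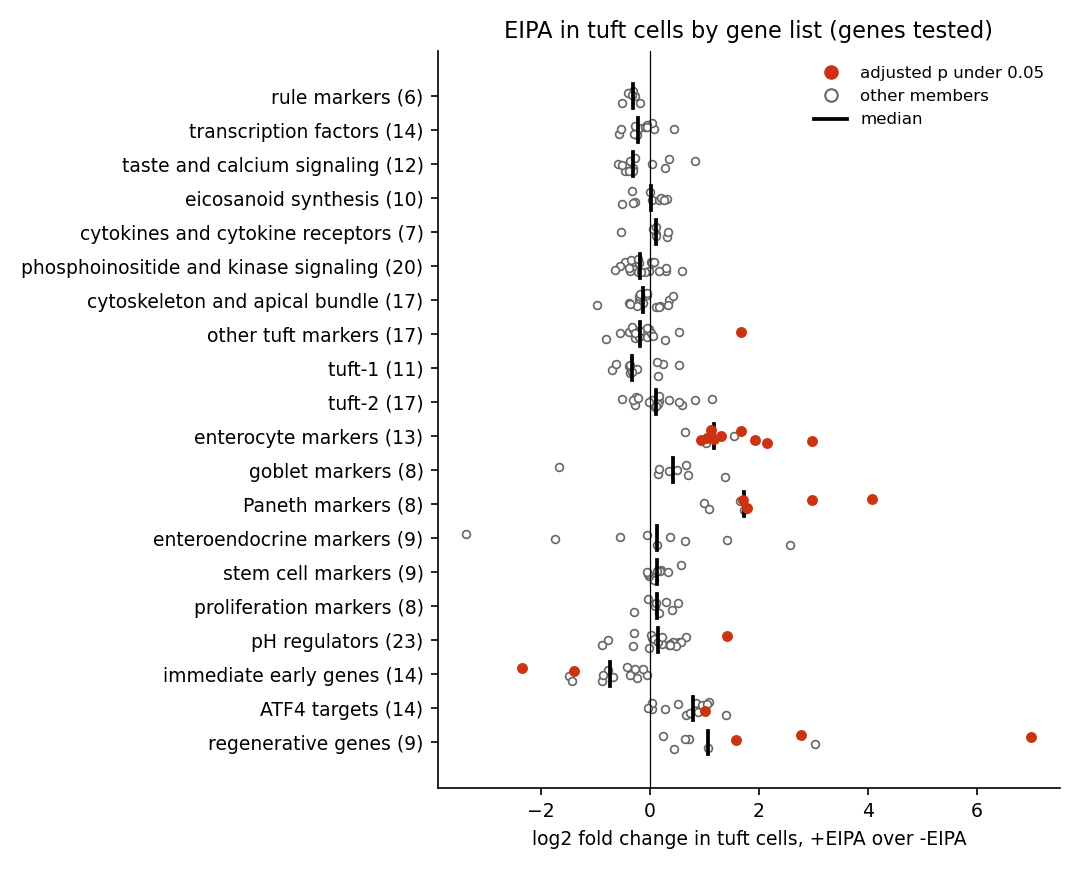
Log2 fold change in tuft cells with EIPA for each member tested of 20 gene lists, with the number tested in brackets, the median as a bar and genes at an adjusted p under 0.05 in red. Tuft lists centre near 0, whereas enterocyte (median 1.19) and Paneth genes (1.72) lie to the right and immediate early genes (-0.73) to the left; the point farthest right is Ly6d, a fitted value against libraries with 0 UMIs.

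Whether the EIPA change differed between tuft cells and the other cells was tested as a difference of the 2 changes within each library. The other cells are 1 sum over several cell types. Of them, 6687 and 6560 without EIPA and 7506 and 7955 with it had UMIs of 3 or more of Alpi, Fabp2, Anpep, Mttp, Sis and Apob. The cells kept numbered 12606 and 18211 without EIPA and 13194 and 14262 with it. The part of this mix of cell types in the differences was not tested. Of 15137 genes tested, edgeR called 113 (0.747%), 64 with a higher and 49 with a lower change in tuft cells, and the median difference was 0.02. With plain library size scaling the split turned to 52 and 63, and DESeq2 called 7 genes, all of lower change in tuft cells, with 304 at an unadjusted p under 0.05. With 1 library left out the count was lowest, 28, when this was +EIPA replicate 1 and highest, 300, when it was -EIPA replicate 2. The 10 genes of smallest p were Paneth genes (Defa30, Defa24, Lyz1, Defa3, AY761184, Mptx2 and Defa22), the goblet gene Zg16 and the hormone genes Ghrl and Gip. For Zg16, 1 cell held 85.2% of the tuft UMIs of -EIPA replicate 2, and for Gip 1 cell held 96.2% of those of +EIPA replicate 1. DESeq2 called none of the 10, and their p values rest on a spread shared across genes.

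The 7 genes that both tools called had differences below 0. Their log2 fold changes in tuft cells ran from -0.56 for Sct to -0.05 for Espn, none of them called, and each was higher with EIPA in the other cells of both experiments. Espn, espin, which bundles actin in microvilli, was at 351.1 and 260.4 CPM in -EIPA tuft cells and 253.4 and 293.7 in +EIPA tuft cells, against 30.7 and 19.7 without and 46.2 and 48.6 with EIPA in the other cells. Its difference was -1.05 ± 0.12 (log2, SE), with adjusted p values of 1.31e-15 by edgeR and 1.35e-10 by DESeq2. Adh1, an alcohol dehydrogenase, was at 561.6 and 325.4 against 397 and 393 CPM in tuft cells and at 141 and 77.1 against 233 and 193 in the other cells, with a difference of -1.10 ± 0.11. For 1810046K07Rik the difference was -1.05 ± 0.25, with 45.9 and 58.2 CPM in +EIPA tuft cells against 67.8 and 68.7, while the other cells were at 0.930 and 1.05 without EIPA and at 1.28 and 1.96 with it. Plac8 and the hormone gene Sct had differences of -0.67 ± 0.09 and -1.10 ± 0.15, Cpeb4 and Ahnak2 of -0.92 ± 0.18 and -2.33 ± 0.35. For Sct, 1 cell held 71.9% of the tuft UMIs of -EIPA replicate 2. Il13ra1 had a difference of -0.77 ± 0.13, called by edgeR with an adjusted p of 2.34e-06 and not by DESeq2, whose adjusted p was 0.0623. For 1810046K07Rik and Ahnak2 the other cells had at most 1.96 and 0.920 CPM, and the part of tuft cells that the rule leaves among them was not tested.

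**Figure D5:**
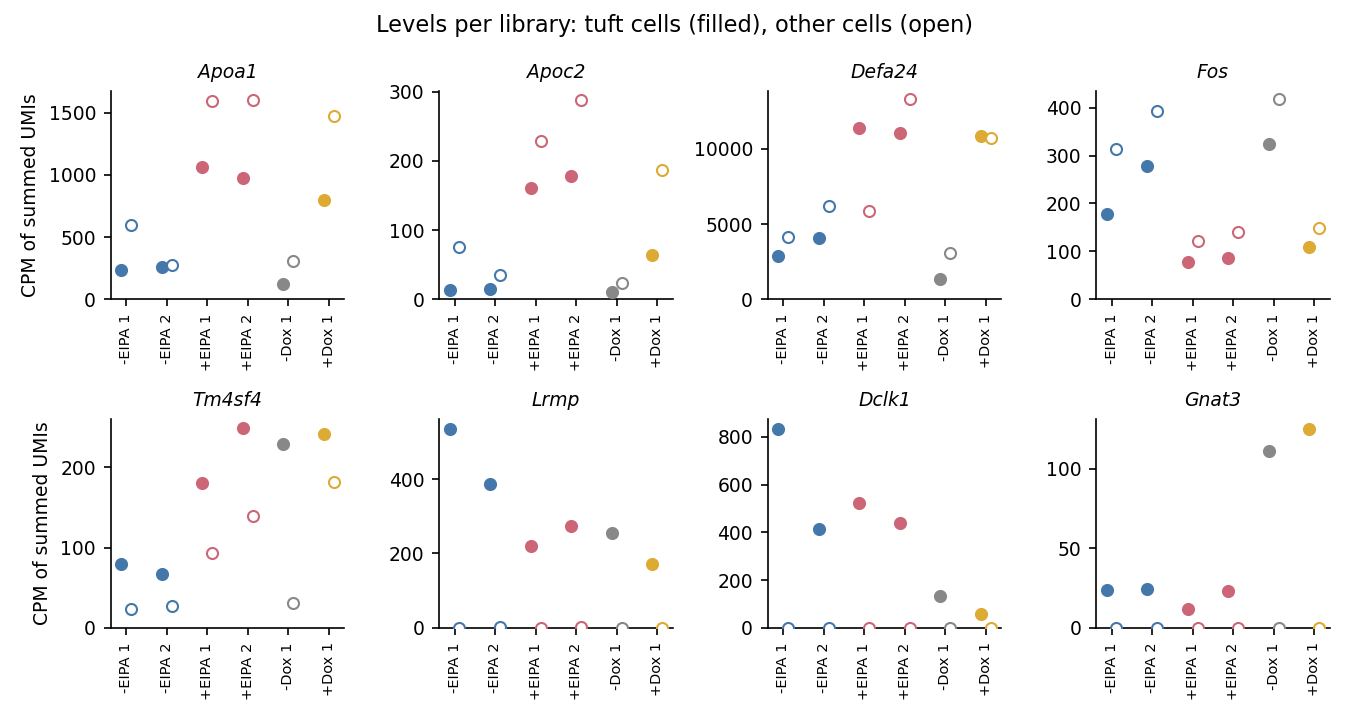
CPM of 8 genes in tuft cells (filled) and the other cells (open) of each library. Apoa1, Apoc2 and Defa24 are higher and Fos lower in the tuft cells of both +EIPA libraries than in those of both -EIPA libraries; Lrmp, Dclk1 and Gnat3 are near 0 in the other cells.

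The CRISPR libraries gave 1 library per group, so their values have no replicate check and no p. Of 6483 genes with at least 30 UMIs over both sums and 4 in each, 126 (1.94%) were 2-fold or more higher in +Dox tuft cells and 124 (1.91%) 2-fold or more lower, and the median log2 ratio was -0.06. The 47 tuft cells of +Dox had a median of 14407 UMIs and the 74 of -Dox a median of 5668, and in such small samples 1 cell can carry a gene. For Zg16 the -Dox level was 15.9 CPM (exact Poisson interval 8.68 to 26.6) and the +Dox level 1623 CPM (1542 to 1707), where 1 cell held 98.9% of its UMIs. Muc2, the gel-forming mucin of goblet cells, was at 19.3 (11.2 to 30.9) against 211 CPM (183 to 242.8), with 60.2% in 1 cell.

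Several enterocyte, goblet and Paneth markers were above their -Dox level in +Dox. Apoa1 was at 119 (97.4 to 144) against 797.9 CPM (741.5 to 857.5), and Guca2b at 56.7 (42.1 to 74.7) against 387.6 (348.6 to 429.8). Defa24 was at 1335 (1260 to 1414) against 10851 CPM (10640 to 11065), and Guca2a, S100a6, Reg3a and Tff3 had log2 ratios of 2.75 to 2.94. By list, 7 of 11 enterocyte, 6 of 6 goblet and 7 of 7 Paneth markers compared were 2-fold higher, with median log2 ratios of 1.37, 2.71 and 2.34. In single tuft cells the median per 10000 UMIs was 13.1 without Dox and 14.1 with it for enterocyte markers, 6.47 and 12.2 for goblet markers, and 9.91 and 37.1 for Paneth markers. The 10% of the 47 +Dox tuft cells richest in each list held 72.4% of its enterocyte, 86.6% of its goblet and 74.6% of its Paneth UMIs. The other cells moved too, from 304.2 to 1474 CPM for Apoa1.

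The ratios of tuft genes are given by list, beside a median log2 ratio of -0.06 over all genes compared. Transcription factors (10 compared), cytokines and receptors (4) and the cytoskeleton (14) had median log2 ratios of 0.06, 0.33 and 0.05. In these 3 lists 0 genes were 2-fold higher and 1, Spib, was 2-fold lower, at 86.2 against 34.5 CPM. Taste and calcium signaling (9) and eicosanoid synthesis (9) had -0.35 and -0.16. All 6 genes of the rule had ratios below 0 on the log2 scale, with a median of -0.78, from Dclk1 at 135 (112 to 161) against 59.2 CPM (44.6 to 77.1) to Trpm5 at 150 (125 to 177) against 114 (93.4 to 138). Rgs2, a regulator of G protein signaling, was at 107 (86.1 to 130.4) against 37.7 CPM (26.2 to 52.4). Of 18 genes of phosphoinositide and kinase signaling compared, 7 were 2-fold lower and 0 higher, with a median of -0.52. Of the 8 tuft-2 genes compared, 3 were 2-fold lower, with a median of -0.74, and of the 9 tuft-1 genes 1, with -0.30. Pou2f3 was at 44.2 (31.4 to 60.4) against 60.3 CPM (45.6 to 78.3), whose intervals overlap. These sums rest in +Dox on cells near the limit of the rule: the 14 cells with 3 rule genes and the 12 with 4 held 288608 and 386706 UMIs, and the 13 with 5 and the 8 with 6 held 146189 and 107172. With 5 and 6 genes Pou2f3 was at 55.6 and 81.3 CPM in -Dox cells, against 130 and 140 in those of +Dox. In -Dox these were 23 and 15 cells, and no interval was taken for levels that rest on so few cells. Fos was at 323.1 (286.7 to 362.9) against 110 CPM (89.6 to 133), and Dmbt1, 2610528A11Rik, Hist1h2ap, Selenbp1 and Bnip3 were with Fos and Rgs2 among the 8 lowest log2 ratios among genes with 100 or more UMIs over both libraries, from -2.17 to -1.42. CPM is a share of a cell's total, so fewer tuft transcripts and more transcripts of other kinds cannot be told apart here.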

How the data were processed

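Single cells of mouse small intestinal organoids were profiled in 6 libraries, 2 each of -EIPA and +EIPA WT organoids and 1 each of -Dox and +Dox CRISPR organoids. The authors aligned reads and counted UMIs with Cell Ranger 6.1.2 (mm10, GRCm38, per the labels) and deposited filtered matrices of raw UMI counts per gene and cell. Gene IDs were matched to GENCODE vM21 for 32158 of 32285 genes.

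Kept cells had 1000 detected genes or more and fewer than 20% of UMIs from mitochondrial genes. Tuft cells were those with 3 or more of the 6 rule genes and under 10 Chga and Chgb UMIs per 10000. Members and gene lists were chosen with earlier results of these data known. Genes were named where they led a test, the tuft level or the Dox ratio, or were members of a list. The 5 genes that separated WT from CRISPR libraries, and Il13ra1, Nrep and Nrgn among the values described, were singled out after their values were seen.

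UMI counts were summed per library over tuft cells and over the other cells kept. edgeR 4.0.16 (quasi-likelihood test, TMM factors, filterByExpr, Benjamini-Hochberg adjustment) compared +EIPA with -EIPA, and in a fit over both classes tested the difference of the changes. DESeq2 1.42.0, library size scaling, no filter, other cell limits, thinning, removal of high doublet scores and leaving out libraries were alternatives. Removing the 10% of tuft cells richest in markers of other types was chosen after seeing the data. It takes the same share of each library, so its limit on these markers differed between libraries. Scrublet's automatic threshold marked 0 cells in 2 libraries, so the top 10% of scores per library were taken. The study's source data list replicates of the same number as 1 experiment, and deviations of same-numbered tuft sums correlated (r = 0.218 over 10255 genes), so a fit with the experiment as a block was also made. -Dox and +Dox had 1 library each and no test. The scripts were tested on data simulated without a difference between experiments, where a larger share of calls was false with the block than without it. The 2 replicates per WT group are separate preparations by the methods, and p-values measure the spread between these libraries. Analyses ran in Python 3.11.15 and R 4.3.3. Some genes are not reported here.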

Additional observations from a re-analysis of the deposited data

Results flagged for a closer look

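The 10 genes with the smallest p in the test of whether the EIPA change differed between tuft cells and the other cells are given here because the 2 changes differed by that test. The differences (log2, tuft minus other cells) by edgeR's quasi-likelihood test were 1.95 for Defa30, 0.96 for Defa24, 1.19 for Lyz1, 2.17 for Defa3, 1.57 for AY761184, 3.68 for Mptx2 and 3.16 for Defa22, all genes of Paneth cells. The difference was -2.91 for Zg16, a goblet gene, -2.87 for Ghrl and 1.47 for Gip, both hormone genes. By DESeq2 the adjusted p was 0.798 for Defa22 and 1.00 for the other 9. In -EIPA replicate 2, 1 tuft cell held 85.2% of the Zg16 UMIs and 72.5% of the Gip UMIs, and in +EIPA replicate 1, 1 cell held 96.2% of the Gip UMIs. The part of single cells in these differences was not tested.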

How the results depend on the processing

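The number of genes changed by EIPA, 69, became 199 with no filter on low counts and 193 with the experiment as a block, and ran from 58 to 245 when 1 library was left out (58 without +EIPA replicate 2, 227 without -EIPA replicate 1, 245 without -EIPA replicate 2), where a group of 1 library is assumed to vary like the other. The block kept all 69 calls. The 113 genes whose change differed became 7 by DESeq2 and 72 with 2 or more rule genes, ran from 28 to 300 with 1 library left out, and were 79 with the block. The 250 genes past 2-fold between -Dox and +Dox became 71 with 100 or more UMIs over both libraries. The cause of these moves was not tested. Of 29 named genes called, 0 changed sign over 13 settings and 17 lost the call in at least 1, and of 108 not called, 43 gained it in at least 1. The medians of the enterocyte, Paneth and immediate early lists kept their sign (1.09 to 1.66, 1.15 to 3.28 and -0.83 to -0.43), and those of the tuft-2 (-0.44 to 0.55), eicosanoid (-0.22 to 0.05), cytoskeleton, taste, kinase signaling, other tuft marker and rule lists changed sign in 1 to 8 of 13 settings. Library size scaling moved the median of all genes by -0.10. Depth limits rare genes: 3 UMIs are 0.852 to 3.40 CPM over the tuft cells of a library.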
